A study of Mus musculus with 157 samples.

Results

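Dendritic cells and B cells are the 2 antigen-presenting cell types that the atlas of wild-type mouse blood cell types names DC and B_cell. Their 8 libraries were chosen by these cell type labels, out of 157 samples in all. Each type had 2 libraries of input RNA and 2 IP libraries, made from RNA pulled down by an antibody that binds N6-methyladenosine (m6A). All 8 carry the genotype label wild type and the label untreated. The labels used here give no strain, age, sorting gate or animal, and nothing in them tells whether the replicates are separate animals. The p-values therefore reflect only the spread between replicate libraries, pooled over the 16 cell types of the atlas, and that spread may be technical. The IP used 0.5 µg of antibody on 100 ng of total RNA. In bulk RNA, fewer cells of a type and less RNA per cell cannot be told apart.

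Dendritic cells take up foreign material, cut it into peptides in endosomes and the cytosol, and show the peptides on MHC class II and class I molecules to T cells. B cells also display peptides on MHC class II, but take up antigen through their immunoglobulin receptor, whose signalling chains are Cd79a and Cd79b. m6A is a methyl mark on adenosine in messenger RNA, set by a methyltransferase complex around Mettl3 and Mettl14 and bound by reader proteins such as those of the YTH family.

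The deposited input values are normalised: in each library the reads of a gene were divided by a common factor, and the values below are in these units. A single read was worth 0.718 and 0.714 units in the DC input libraries and 2.43 and 2.54 in those of B_cell. In units of 1000000 reads the DC inputs held 14.5 and 14.1, the B_cell inputs 8.27 and 8.49, and the 4 IP libraries 10.8 to 13.3. The 10 most abundant genes took 15.1% and 13.9% of the DC input reads and 25.2% and 31.3% of the B_cell input reads.

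The 2 B_cell input libraries stood apart from each other. Of 4102 genes with a scaled value of at least 500 in either of them, 102 were more than 8-fold higher in replicate 1 and 0 were more than 8-fold higher in replicate 2. In DC the same counts were 0 and 0 of 4425 genes. The SD of the log2 difference between replicates was 1.18 in the B_cell inputs, the largest of the 16 input pairs of the atlas, and 0.26 in the DC inputs. Ighm, the heavy chain of IgM, had deposited values of 649860 and 31185 in the 2 B_cell libraries and 214490 and 148010 in DC. The DC libraries lay between the B_cell libraries, and Ighm did not pass the test. Counts of 3 or more genes are also given without a library where leaving it out moves them by more than 1.5 times.

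**Figure D1:**
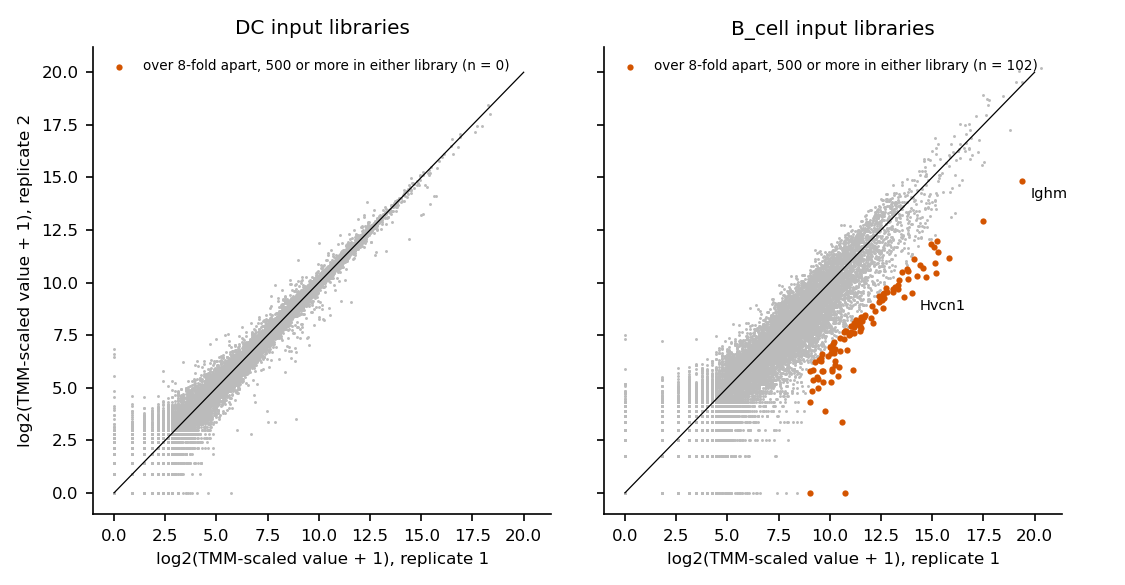
Each point is a gene, with its log2 scaled input value in replicate 1 on the x axis and replicate 2 on the y axis, for DC (left) and B_cell (right). Orange points are the 0 and 102 genes more than 8-fold apart among those at 500 or more, and all 102 lie below the line of equality.

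The labels were checked against defining markers. Of 14 dendritic cell markers, 8 rose in DC, 1 fell and 5 did not pass the test. Batf3, a factor needed by type 1 dendritic cells, had 663 and 604 in DC and 0 and 12.7 in B_cell. Itgax, the surface integrin CD11c, had 642 and 602 in DC and 19.5 and 30.4 in B_cell. Zbtb46, a factor of the conventional dendritic lineage, had 375 and 344 in DC and 26.8 and 43.1 in B_cell. These markers were far higher in DC than in B_cell, with no overlap, but they were picked from the markers that rose. Of 14 B cell markers, 6 fell in DC, 0 rose and 8 did not pass the test. Cd79a had 9965 and 8984.5 in DC and 345050 and 521270 in B_cell, and Cd79b had 8804 and 7481 in DC and 192690 and 277080 in B_cell. The DC libraries thus held clear levels of B cell genes. Among the DC markers in B_cell, Batf3 and Clec9a were near 0, while Siglech had 2025 and 3291 and Bst2, the surface protein tetherin, had 1222 and 2490.

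In expression, 3537 of 17165 genes tested (20.6%) were higher in DC and 2723 (15.9%) were lower, at an adjusted p under 0.05. The median log2 fold change over all genes was 0.05. The list counts below are to be set beside these shares of 20.6% and 15.9%. Without B_cell replicate 2 the counts were 2479 and 1869, and without B_cell replicate 1 they were 3587 and 2494. With each DC library left out in turn they were 2528 and 1701 without replicate 1, and 2461 and 1774 without replicate 2. The scaling sets the balance: higher genes made up 56.5% of the calls as deposited, 68.1% after TMM scaling and 88.4% after scaling to library totals. The median of all genes was then 0.31 and 0.98, and log2 differences below are relative to the deposited scale.

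**Figure D2:**
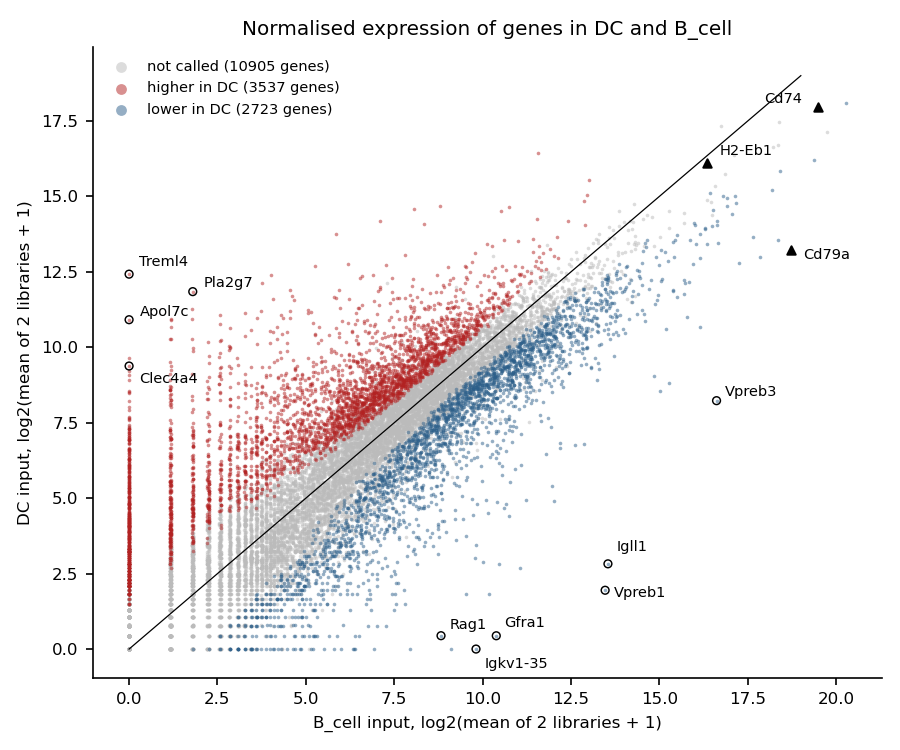
Mean normalised input value of each tested gene in B_cell (x axis) and DC (y axis), both as log2(mean + 1). Red genes were higher and blue genes lower in DC; the circled genes are among the largest differences, from Treml4 at 0 in B_cell to Igkv1-35 at 0 in DC, and the triangles mark H2-Eb1, Cd74 and Cd79a.

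Treml4, a receptor of the TREM family (chr17:48264200-48275607, GRCm38), had 4752 and 6228 in DC and 0 and 0 in B_cell. At the floor of 3 reads per library this is at least 736.5-fold higher in DC. Apol7c, an apolipoprotein L family member (chr15:77524852-77533335), had 2029 and 1825.5 in DC and 0 and 0 in B_cell, at least 259-fold higher. Clec4a4, a C-type lectin known as a surface marker of type 2 dendritic cells (chr6:122990367-123024421), had 711 and 618 in DC and 0 and 0 in B_cell, at least 89.2-fold higher. All 3 genes were listed at 0 in both B_cell libraries. Bcl2a1a, a survival protein, was also at 0 in B_cell, against 765 and 839.5 in DC, at least 108-fold higher. Its near-identical copies can share reads, so its own level is uncertain.

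The other genes of the 12 named by rule for the largest rises had 1 or 2 reads in the B_cell libraries together. Havcr2, the inhibitory receptor TIM-3, had 1375 and 1110 in DC and 0 and 2.54 in B_cell, a ratio of 1000-fold, 95% interval 179 to 39519 from counting error only. Slamf8, a receptor of phagocytes, had 2172 and 1710 in DC (1562.5-fold, 95% interval 280.3 to 61727). Pla2g7, a secreted phospholipase that hydrolyses platelet-activating factor, had 3242 and 4107 in DC (1480-fold, 95% interval 409.5 to 12220). Cd300e, an activating myeloid receptor, had 1700 and 2103 and Ckb, the brain-type creatine kinase, had 1777 and 1454 in DC. Hpgd, which inactivates prostaglandins, had 1810 and 2152. The paired immunoreceptors Sirpb1a, with 2654 and 2293, and Sirpb1c, with 1218 and 1281, complete the 12 and resemble each other closely enough that reads may be split between them. Adjusted p ran from 1.59e-13 for Treml4 to 6.07e-07 for Slamf8. Set among all 16 cell types, 10 of the 12 had their highest mean in DC, while Pla2g7 and Sirpb1c were highest in the libraries labelled Monocyte.

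The 12 largest falls in DC among genes eligible for naming included the surrogate light chain genes and Rag1, which act at the pre-B cell stage. Vpreb1, part of the surrogate light chain that pairs with the heavy chain before light chains are made (chr16:16868401-16869255), had 0.72 and 5.0 in DC and 5481 and 17130 in B_cell, a log2 fold change of -11.56 ± 0.55, adjusted p = 1.72e-13. Igll1, its partner (chr16:16860671-16863985), had 3.59 and 8.57 in DC and 6487 and 17404 in B_cell (-10.65 ± 0.71, adjusted p = 6.66e-11). Rag1, the recombinase that cuts immunoglobulin genes (chr2:101638252-101649532), had 0.72 and 0 in DC and 277 and 626 in B_cell (-8.32 ± 0.76, adjusted p = 8.21e-09). All DC values of these genes came from 12 reads or fewer. Vpreb2 had 682 and 1635 and Vpreb3 64340 and 136570 in B_cell, with 4.31 and 0.71 and 319 and 279 in DC. Akap12, a scaffold of protein kinase A, had 21.5 and 36.4 in DC and 2792 and 5484 in B_cell.

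The rest of these 12 were Gfra1, a receptor for the growth factor GDNF with 1051.5 and 1623 in B_cell, Rsph9, a radial spoke protein of cilia with 1083 and 3147, the light chain segment Igkv1-35 with 392 and 1405, and the replication-dependent histones Hist2h2aa2, Hist1h2ag and Hist1h2ad. Igkv1-35, at 0 in both DC libraries, was at least 418-fold lower in DC. Hist2h2aa2 had 204 and 895 in B_cell and 0 in DC, and its call was lost without B_cell replicate 2 (adjusted p = 0.0599) and with edgeR (adjusted p = 0.0637). The calls of Clec4a4 and Igkv1-35 were lost with DESeq2. Histone and variable-segment genes have near-identical copies, so their own levels are uncertain. In 11 of the 12 the B_cell mean was the highest of all 16 cell types, the exception being Hist1h2ag.

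Of 17 tested genes of pre-B cells and recombination, 14 fell in DC, 1 rose and 2 did not pass the test, with a median log2 fold change of -3.56. Rag2, the partner of Rag1, had 7.18 and 5.0 in DC and 445 and 117 in B_cell. Il7r, the interleukin 7 receptor that early B cells need, had 558 and 580.1 in DC and 4315.5 and 6790 in B_cell (-3.25 ± 0.43, adjusted p = 2.32e-06). Sox4, a factor of B cell progenitors, had 128.5 and 106 in DC and 1183 and 1263 in B_cell. In each of these the B_cell libraries were above both DC libraries, though all were picked from called genes. The B_cell libraries also held the early granule genes Elane, the neutrophil elastase, at 1653 and 1040, and Mpo, the myeloperoxidase, at 2320 and 1382, against 108 and 105 and 142 and 194 in DC. Of 18 neutrophil markers 3 fell (Elane, Mpo and Prtn3) and 5 rose in DC, beside 15.9% lower and 20.6% higher over all genes tested. Their summed level was 13830 to 15020 in DC and 13340 to 21290 in B_cell. No neutrophil marker was at 0 in both libraries of a type. The 5 higher calls were 3 without DC replicate 1 or DC replicate 2, 2 without B_cell replicate 2, and 8 after scaling to library totals. The part of such cells in these values was not tested.

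Among B cell receptor and signalling genes, 7 of 25 fell in DC and 3 rose, with a median of -0.47. The shares over all genes tested were 15.9% lower and 20.6% higher. Cd79a fell by 5.49 on the log2 scale (SE 0.66, adjusted p = 9.96e-07) and Cd79b by 4.83 (SE 0.34, adjusted p = 2.3e-10). Siglecg, an inhibitory lectin of B cells, had 4739 and 4132.5 in DC and 50445 and 57445 in B_cell (-3.60 ± 0.34, adjusted p = 1.21e-08). Cd72, another inhibitory coreceptor, had 3779 and 3907 in DC and 60375 and 25277 in B_cell (-3.35 ± 0.38, adjusted p = 3.26e-07). Cd5, an inhibitory receptor of T cells and of a B cell subset, went the other way with 341 and 333 in DC and 24.3 and 27.9 in B_cell. Without B_cell replicate 2 the counts were 9 lower and 1 higher, and scaled to library totals they were 5 lower and 7 higher with a median of 0.55.

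Of 17 tested immunoglobulin constant and surrogate chain genes, 7 fell and 3 rose in DC, or 7 and 1 without B_cell replicate 2 and 6 and 1 without DC replicate 2. The lambda chains Iglc2, with 13659 and 12062 in DC and 136470 and 272580 in B_cell, and Iglc3, with 8415 and 5902 in DC and 108530 and 203130 in B_cell, fell. Jchain, the joining chain of secreted IgM and IgA, rose from 438 and 451 in B_cell to 32736 and 19849 in DC (5.84 ± 0.85, adjusted p = 2.11e-05). Jchain belongs to the 15 plasma cell markers tested, of which 6 rose in DC and 0 fell, or 3 and 0 without B_cell replicate 2, 3 and 1 without B_cell replicate 1, and 2 and 0 without DC replicate 1. Their summed level was 47290 to 67710 in DC and 25230 to 32190 in B_cell, and no marker was at 0 in both libraries of a type. Whether plasma cells contributed was not tested.

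B cell transcription factors fell more often than they rose, 9 against 2 of 22 tested, with a median of -1.30. Bach2, a repressor that holds B cells from becoming plasma cells, had 576 and 479 in DC and 20893 and 37929 in B_cell (-5.74 ± 0.46, adjusted p = 1.25e-09). Ebf1, which sets the B lineage, had 1591.5 and 1505 in DC and 24508 and 7766 in B_cell (-3.16 ± 0.52, adjusted p = 4.5e-05). Pax5, which keeps B cell identity, had 1334.5 and 1387 in DC and 13187 and 15632 in B_cell (-3.40 ± 1.30, adjusted p = 0.0446), but its spread across the atlas was wide and the call was lost when any of the 4 input libraries was left out. Ikzf2, a factor of the Ikaros family, rose, with 136 and 122 in DC and 24.3 and 10.1 in B_cell. Without DC replicate 1 the list gave 4 lower and 2 higher, without B_cell replicate 2 it gave 6 and 1, and scaled to library totals 2 lower and 4 higher with a median of -0.28. For B cell survival and homing genes, 6 of 20 fell and 4 rose with a median of -0.58, which was 0.44 after scaling to library totals; the counts were 5 and 2 without DC replicate 1 and 6 and 2 without B_cell replicate 2. Cd37, a tetraspanin of mature B cells, fell, with 5522 and 5110 in DC and 26823 and 16960 in B_cell, and Cd9, another tetraspanin, rose, with 3074 and 3107 in DC and 209 and 145 in B_cell. Cxcr4, the receptor that holds cells in the marrow, had 10.8 and 5.72 in DC and 175 and 63.4 in B_cell.

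MHC class II genes were mostly not called, as was the case for 10905 of all 17165 genes tested. Of the 17 class II genes 3 rose in DC, 1 fell and 13 did not pass the test. The counts were 0 and 0 without DC replicate 1, 1 and 0 without DC replicate 2, 3 and 0 without B_cell replicate 1, 2 and 0 without B_cell replicate 2, and 8 and 0 after scaling to library totals. H2-Aa, an alpha chain, had 93747 and 75127 in DC and 112860 and 169970 in B_cell. H2-Eb1, a beta chain, had 80846 and 59863 in DC and 58297 and 108100 in B_cell. H2-Ab1, the other beta chain, had 177940 and 150830 in DC and 167600 and 53789 in B_cell. The libraries of the 2 types overlapped for H2-Ab1 and H2-Eb1, and for H2-Aa the B_cell libraries were above those of DC. The differences of -0.72 ± 0.64, -0.19 ± 0.61 and 0.79 ± 0.58 on the log2 scale did not pass the test, which does not show that the levels are alike. 

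The 4 calls lay among the chaperones and regulators. H2-DMb1, a chain of the molecule that loads peptides onto class II, had 10356 and 9079 in DC and 5126 and 2561 in B_cell (1.42 ± 0.42, adjusted p = 0.0105). Ciita, the master activator of class II genes, had 1642 and 1252 in DC and 387 and 735 in B_cell (1.42 ± 0.55, adjusted p = 0.0461). Rfxap, a subunit of the RFX complex that binds their promoters, had 115 and 144 in DC and 60.9 and 33.0 in B_cell (1.5 ± 0.58, adjusted p = 0.0458). Cd74, the invariant chain that fills the groove before peptide, had 284120 and 223920 in DC and 645700 and 819650 in B_cell (-1.53 ± 0.57, adjusted p = 0.0379). Each of these calls was lost when some single library was left out. Cd74 did not pass when any of the 4 input libraries was left out, with adjusted p from 0.0638 to 0.175, nor after TMM scaling (0.0851). H2-DMb1 did not pass without DC replicate 1 (0.0716) or B_cell replicate 2 (0.175), Ciita without DC replicate 1 (0.219), DC replicate 2 (0.0956) or B_cell replicate 1 (0.286), and Rfxap without DC replicate 1 (0.102), DC replicate 2 (0.195) or B_cell replicate 2 (0.291). The median of the list was -0.19 as deposited, 0.09 after TMM scaling, 0.83 after scaling to totals and 0.11 without B_cell replicate 2, so it has no stable sign.

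The promoters of class II genes are shown because both cell types held this group at high levels. They are the 250 bases before the annotated start in RefSeq, build GRCm38.p6, with capitals for the Y box (GATTGG, which reads CCAATC when it lies on the other strand), and in H2-Eb1 also for the X box (TAGCAACNG), the elements that the NF-Y and RFX factors bind. H2-Eb1 lies at chr17:34305617-34305866 (plus strand), H2-Aa at chr17:34287824-34288073 (minus strand) and H2-DMb1 at chr17:34152941-34153190 (plus strand).
H2-Eb1: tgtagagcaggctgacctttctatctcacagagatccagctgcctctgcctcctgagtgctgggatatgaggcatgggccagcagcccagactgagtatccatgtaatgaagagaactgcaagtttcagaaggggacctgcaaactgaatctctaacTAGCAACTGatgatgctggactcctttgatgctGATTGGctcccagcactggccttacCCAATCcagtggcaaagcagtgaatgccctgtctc
H2-Aa: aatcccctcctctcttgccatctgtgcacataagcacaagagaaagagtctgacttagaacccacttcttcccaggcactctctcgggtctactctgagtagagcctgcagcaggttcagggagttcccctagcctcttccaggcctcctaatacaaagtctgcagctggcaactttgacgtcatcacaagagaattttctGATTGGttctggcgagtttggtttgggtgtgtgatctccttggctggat
H2-DMb1: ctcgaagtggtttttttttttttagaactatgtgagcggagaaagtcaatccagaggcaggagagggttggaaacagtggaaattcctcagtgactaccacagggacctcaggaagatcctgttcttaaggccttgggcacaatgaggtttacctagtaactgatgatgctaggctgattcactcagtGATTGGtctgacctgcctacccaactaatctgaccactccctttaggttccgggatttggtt
Windows of 300 bases, from 250 before to 50 after the start, were read on both strands. The Y box letters were in 9 of the 12 matched class II genes (75%). They were in 18.2% of 27025 genes with a promoter in the table and in 22.3% of the matched genes tested. The X box letters were in 1 of the 12 (8.33%), H2-Eb1, and in 1.63% of all. These matches are a description of the letters, not of binding.

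**Figure D3:**
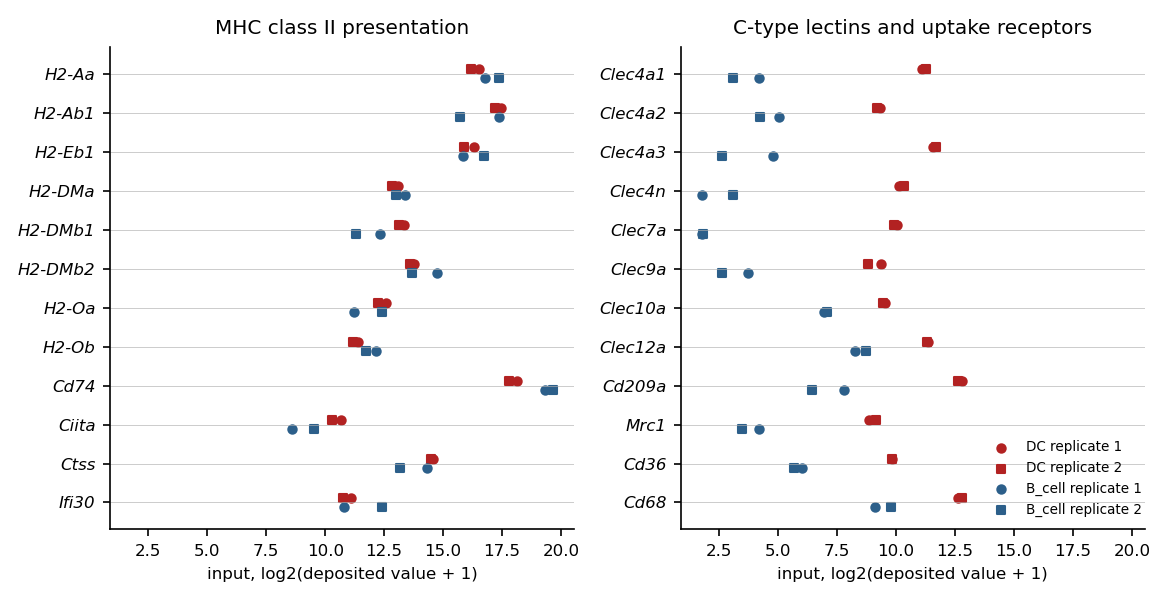
Normalised input values of 12 class II genes (left) and 12 C-type lectins and uptake receptors (right), as log2(value + 1), with a point for each library. DC points in red and B_cell points in blue overlap or lie closer together on the left and are separated on the right, as for Clec7a with 1042 and 970.2 in DC and 2.43 and 2.54 in B_cell.

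In the class I pathway 7 of 20 genes rose in DC and 3 fell, with a median of 0.46. The shares over all genes tested were 20.6% higher and 15.9% lower. B2m, the light chain of every class I molecule, had 38488 and 38012 in DC and 207960 and 384840 in B_cell (-2.89 ± 0.62, adjusted p = 0.000803). Tap1, a subunit of the peptide transporter, had 1499 and 1439 in DC and 645 and 254 in B_cell (1.86 ± 0.40, adjusted p = 0.000726). Erap1, the peptide-trimming enzyme of the endoplasmic reticulum, had 133 and 88.6 in DC and 17.0 and 33.0 in B_cell (2.15 ± 0.50, adjusted p = 0.00159). Nlrc5, the activator of class I genes, had 239 and 224 in DC and 73.0 and 45.6 in B_cell (1.98 ± 0.44, adjusted p = 0.000993). The other members that fell were the immunoproteasome subunits Psmb8, with 10463 and 10230 in DC and 18817 and 31986 in B_cell (-1.25 ± 0.46, adjusted p = 0.0369), and Psmb10, with 2373 and 2473.5 in DC and 4634 and 11248 in B_cell (-1.57 ± 0.40, adjusted p = 0.00317). Both lost their calls without B_cell replicate 2 (adjusted p = 0.262 and 0.11), and Psmb8 also without DC replicate 1 (0.12) or DC replicate 2 (0.129). The 6 named genes did not overlap between the types, but they were picked from the called genes, so this adds no support. The list gave 3 higher and 2 lower without B_cell replicate 2, 4 and 2 without DC replicate 1, and 14 and 1 after scaling to library totals; the calls of B2m, Tap1, Erap1 and Nlrc5 held without each of these libraries.

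Lysosomal and endosomal proteases and their inhibitors, which cut antigen before loading, rose in 12 of 17 cases and fell in 0, with a median of 1.83. Ctsd, cathepsin D, had 4113 and 5479 in DC and 808 and 276 in B_cell (3.33 ± 0.38, adjusted p = 3.1e-07). Ctsl, cathepsin L, had 1903 and 2356 in DC and 657 and 634 in B_cell (1.71 ± 0.33, adjusted p = 0.000295). Cst3, the inhibitor cystatin C, had 36379 and 31859 in DC and 6947 and 9006 in B_cell (2.11 ± 0.41, adjusted p = 0.000297). Ctsf, cathepsin F, was listed at 0 in both B_cell libraries and had 81.1 and 113 in DC. Ctss, the cathepsin that trims the invariant chain, had 24215 and 22719 in DC and 20346 and 9250 in B_cell and did not pass the test.

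Costimulatory and inhibitory ligands rose in 8 of 13 cases and fell in 2, with a median of 1.79; the counts were 4 and 2 without DC replicate 1 or 2, and 5 and 2 without B_cell replicate 1. Vsir, the inhibitory ligand VISTA, had 1549 and 1451 in DC and 148 and 53.2 in B_cell (4.06 ± 0.35, adjusted p = 3.87e-09). Icosl, the ligand of ICOS, had 1237 and 1053 in DC and 309 and 269 in B_cell (1.98 ± 0.46, adjusted p = 0.00148). Lgals9, galectin 9 and a ligand of TIM-3, fell, with 2075 and 2340 in DC and 34234 and 14085 in B_cell (-3.32 ± 0.44, adjusted p = 2.57e-06). Cd86, which binds CD28 on T cells, had 853 and 926 in DC and 256 and 337 in B_cell (1.59 ± 0.54, adjusted p = 0.0234), and its call was lost when any of the 4 input libraries was left out, with adjusted p from 0.0541 to 0.112.

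C-type lectins and uptake receptors rose nearly throughout: 24 of 25 rose in DC, 0 fell and 1 did not pass the test. Their median log2 fold change was 5.18, or 3.97 with genes at 0 in B_cell set to the floor of 3 reads per library. Clec7a, the receptor Dectin-1 for fungal glucans, had 1042 and 970.2 in DC and 2.43 and 2.54 in B_cell (8.17 ± 0.47, adjusted p = 5.87e-12). Clec4a1 had 2199 and 2463.5 in DC and 17.0 and 7.61 in B_cell and Clec4a3 had 2989 and 3286 in DC and 26.8 and 5.07 in B_cell; both are lectins of the DCIR family. Clec9a, which binds actin of dead cells on type 1 dendritic cells, had 650.4 and 454 in DC and 12.2 and 5.07 in B_cell (5.93 ± 1.11, adjusted p = 0.000182). Cd209a, a DC-SIGN homologue, had 7168.5 and 6375 in DC and 221 and 86.2 in B_cell (5.60 ± 0.92, adjusted p = 5.87e-05). In all of these genes every DC library was above every B_cell library, but they were picked from called genes, so this adds no support. Summed over the list, the level was 29730 to 30260 in DC and 1641 to 2409 in B_cell.

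A joint site for ETS and IRF factors, searched on both strands as GGAA, any 2 bases and GAAA, is shown in capitals, as it reads on the printed strand, in 3 promoters of this group, again the 250 bases before the RefSeq start. Clec4a1 lies at chr6:122921598-122921847 (plus strand), Clec7a at chr6:129472780-129473029 (minus strand) and Cd209d at chr8:3878500-3878749 (minus strand).
Clec4a1: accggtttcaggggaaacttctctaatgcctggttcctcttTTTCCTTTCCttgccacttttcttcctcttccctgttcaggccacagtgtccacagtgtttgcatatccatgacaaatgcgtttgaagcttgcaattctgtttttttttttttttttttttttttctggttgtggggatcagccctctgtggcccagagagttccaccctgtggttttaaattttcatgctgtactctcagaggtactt
Clec7a: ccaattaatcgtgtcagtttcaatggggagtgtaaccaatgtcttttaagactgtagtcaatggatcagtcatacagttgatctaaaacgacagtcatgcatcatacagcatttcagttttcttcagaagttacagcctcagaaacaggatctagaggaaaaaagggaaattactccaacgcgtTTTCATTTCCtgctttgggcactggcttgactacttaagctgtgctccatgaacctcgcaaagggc
Cd209d: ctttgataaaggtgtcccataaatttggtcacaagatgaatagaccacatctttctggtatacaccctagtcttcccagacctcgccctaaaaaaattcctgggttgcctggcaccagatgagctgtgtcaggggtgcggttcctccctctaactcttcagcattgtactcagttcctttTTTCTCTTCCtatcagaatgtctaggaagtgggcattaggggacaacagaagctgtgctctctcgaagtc
The letters were in 6 of the 22 matched genes of the group (27.3%), Clec4a1, Clec7a, Cd209a, Cd209d, Cd68 and Timd4, and in 3.16% of all genes with a promoter. They were in 3.21% of the genes that rose in DC and in 2.64% of those that fell. The PU.1 site GAGGAAGT was in 5.24% of genes that rose, 2.9% of genes that fell and 3.69% of all; 3 of the 27 windows with both motifs had them overlapping. The octamer ATGCAAAT was in 1.74% of genes that rose and 1.5% of genes that fell, and the EBF site (TCCC, any 2 bases and GGGA) in 1.21% and 1.4%. 

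Macrophage markers moved with the lectins: 16 of 17 rose in DC, 0 fell, and their median of 6.59 was the highest of the 40 lists. C1qb and C1qc, chains of the complement starter C1q, had 4586 and 6250 and 5314 and 7926 in DC, and 7.30 and 22.8 and 19.5 and 55.8 in B_cell. Spic, a factor of red pulp macrophages, had 2876 and 3790 in DC and 31.6 and 15.2 in B_cell. Vcam1, an adhesion molecule of stromal cells and red pulp macrophages, had 2176 and 2951.5 in DC and 239 and 292 in B_cell. The summed level of the list was 47460 to 63380 in DC and 2652 to 2673 in B_cell, and no marker was at 0 in both libraries of a type. Monocyte markers rose in 10 of 15 cases, with Treml4 and Ace, the angiotensin-converting enzyme, at 0 in both B_cell libraries and Lyz2, lysozyme, at 78721 and 96874 in DC and 3442 and 2667 in B_cell. Their sums were 104600 to 125000 in DC and 9452 to 13280 in B_cell. The part of macrophages or monocytes in the lectin, Fc receptor and protease values was not tested.

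Receptors for antibody and complement rose in 11 of 20 cases and fell in 3. Fcgr4, an activating receptor for IgG, had 946 and 1175 in DC and 9.74 and 2.54 in B_cell (7.42 ± 0.64, adjusted p = 3.65e-09). Fcgr3, another activating IgG receptor, had 4560.5 and 6057 in DC and 75.5 and 114 in B_cell (5.81 ± 0.96, adjusted p = 0.000108). Fcgrt, the neonatal Fc receptor that recycles IgG, had 3595 and 3719 in DC and 144 and 198 in B_cell (4.43 ± 0.52, adjusted p = 4.32e-07). The genes that fell were Fcrla, an Fc receptor-like protein inside B cells, with 1294 and 1155 in DC and 18849 and 6194 in B_cell, Cd93, with 388 and 454 in DC and 4418 and 3418 in B_cell, and Cd72. For Fcgr4, Fcgr3 and Fcgrt no B_cell library reached a DC library, and for Fcrla, Cd93 and Cd72 the order was the reverse. All were picked from called genes, so this adds no support.

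Toll-like receptors and their adaptors rose in 12 of 27 cases and fell in 0, with a median of 1.14; without B_cell replicate 1, 14 rose and 2 fell. Tlr11, a sensor of profilin, had 159 and 85.0 in DC and was listed at 0 in both B_cell libraries. Tlr13, a sensor of bacterial ribosomal RNA, had 172 and 166 in DC and 2.43 and 5.07 in B_cell. Cd14, which hands lipopolysaccharide to Tlr4, had 624 and 847 in DC and 2.43 and 0 in B_cell (8.62 ± 0.82, adjusted p = 1.86e-08). Myd88, the adaptor shared by most of the family, had 2472 and 2391 in DC and 431 and 104 in B_cell (3.51 ± 0.41, adjusted p = 4.11e-07). Tlr7 and Tlr9, the endosomal nucleic acid receptors present in B cells and plasmacytoid cells, had 93.3 and 145 in DC and 29.2 and 43.1 in B_cell, and 56.7 and 33.6 in DC and 43.8 and 35.5 in B_cell, and did not pass the test. For these 2 receptors the differences were 1.69 ± 0.96 and 0.14 ± 0.80.

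Of 20 type 1 markers of conventional dendritic cells 15 rose and 1 fell, with a median of 4.49 (4.23 with genes at 0 set to the floor). Xcr1, the receptor of the chemokine XCL1, had 1009 and 731 in DC and 60.9 and 86.2 in B_cell (3.55 ± 0.51, adjusted p = 8.68e-06). Rab7b, a GTPase of late endosomes, had 1339 and 1030 in DC and 4.87 and 5.07 in B_cell (7.62 ± 0.66, adjusted p = 3.9e-09). Naaa, a lysosomal amidase, had 1622 and 1213 in DC and 75.5 and 45.6 in B_cell (4.56 ± 0.39, adjusted p = 3.13e-09). Cd24a was the marker that fell, with 803 and 601 in DC and 12053 and 3496.5 in B_cell; it is also an antigen of immature B cells. Of 19 type 2 markers 16 rose and 1 fell, with a median of 3.53. Sirpa, the receptor of CD47, had 762 and 686 in DC and 14.6 and 17.7 in B_cell (5.40 ± 0.47, adjusted p = 4.13e-09), and Esam, an adhesion molecule, had 378 and 308 in DC and 2.43 and 0 in B_cell (7.53 ± 0.85, adjusted p = 2.62e-07). Ltb, lymphotoxin beta, was the marker that fell, with 9112 and 8974.5 in DC and 39472 and 34301 in B_cell.

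Plasmacytoid dendritic cell markers went both ways on the deposited scale, with 8 of 28 higher and 5 lower in DC; the counts were 5 and 3 without DC replicate 1, 5 and 4 without DC replicate 2, and 10 and 3 without B_cell replicate 2, and after scaling to library totals 16 and 2. A similar split held over all genes tested, with 20.6% higher and 15.9% lower on the deposited scale. Siglech, the sialic acid lectin of plasmacytoid cells, had 5629 and 6172 in DC and 2025 and 3291 in B_cell and did not pass the test. Ccr9, a homing receptor, had 1133 and 1141 in DC and 212 and 145 in B_cell (2.69 ± 0.50, adjusted p = 0.000152). Ly6d, a surface protein that also marks B cell progenitors, had 11627 and 12457 in DC and 213320 and 453150 in B_cell (-4.69 ± 1.24, adjusted p = 0.00659), and without B_cell replicate 2 its adjusted p was 0.0622. Cox6a2, a respiratory chain subunit, had 430.0 and 604 in DC and 1575 and 7368 in B_cell; its adjusted p without B_cell replicate 2 was 0.0797. Siglech was higher in both DC libraries than in either B_cell library, but not beyond the spread.

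Transcription factors of dendritic cells rose in 17 of 33 cases and fell in 4, or 15 and 1 without DC replicate 1, 15 and 2 without DC replicate 2, and 22 and 0 after scaling to library totals. Batf3 rose by 7.42 ± 0.98 and Zbtb46 by 3.36 ± 0.57 on the log2 scale (adjusted p = 2.57e-06 and 5.99e-05). Mycl, a Myc family member used by dendritic cells, had 118 and 92.2 in DC and 4.87 and 5.07 in B_cell (4.14 ± 1.00, adjusted p = 0.00214). Relb, an NF-kappa-B subunit, had 1645 and 1629 in DC and 382 and 233 in B_cell (2.45 ± 0.42, adjusted p = 6.19e-05). Irf8, which both lineages use, had 18961 and 19646 in DC and 35344 and 12381 in B_cell and did not pass the test; its DC values lay between the B_cell replicates. Id2, an inhibitor of E proteins, rose, with 5963 and 5913 in DC and 557 and 1891.5 in B_cell (2.53 ± 0.48, adjusted p = 0.00021). Id3, its relative, had 788 and 827 in DC and 9050 and 9447 in B_cell (-3.52 ± 1.13, adjusted p = 0.0186), and lost its call when any of the 4 input libraries was left out.

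Growth factor and cytokine receptors rose in 18 of 28 cases and fell in 1, Il7r, or in 19 and 2 without B_cell replicate 1. Flt3, whose ligand drives dendritic cell formation, had 566 and 437 in DC and 24.3 and 78.6 in B_cell (3.47 ± 0.54, adjusted p = 2.16e-05). Csf2ra, the alpha chain of the GM-CSF receptor, had 2919.5 and 3125 in DC and 273 and 236 in B_cell (3.57 ± 0.30, adjusted p = 2.92e-09). Csf1r, the M-CSF receptor, had 1028 and 1208 in DC and 24.3 and 17.7 in B_cell (5.68 ± 0.50, adjusted p = 4.7e-09). Tnfrsf1a, the main TNF receptor, had 1102 and 1126 in DC and 9.74 and 12.7 in B_cell (6.52 ± 0.26, adjusted p = 1.39e-14). The DC replicates of these receptors were close to each other, and no B_cell library reached them. The receptors were picked from called genes, so the lack of overlap adds no support.

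Chemokines and their receptors rose in 18 of 29 cases and fell in 2, with a median of 2.69 (1.92 with genes at 0 set to the floor). The count that fell was 1 without DC replicate 1, DC replicate 2 or B_cell replicate 1. Cxcl16, a membrane-bound chemokine, had 1438 and 1224 in DC and 9.74 and 7.61 in B_cell (7.11 ± 0.72, adjusted p = 4.31e-08). Cxcl9, which attracts activated T cells, and Ccl22, which attracts regulatory T cells, had 219.7 and 175 and 113 and 82.2 in DC, and both were listed at 0 in both B_cell libraries. Cx3cr1, the fractalkine receptor, had 464 and 544 in DC and 34.1 and 22.8 in B_cell (4.12 ± 0.49, adjusted p = 5.99e-07). Genes of mature and migratory dendritic cells rose in 14 of 18 cases and fell in 0. Fscn1, which bundles actin in dendrites, had 161 and 154 in DC and was listed at 0 in both B_cell libraries. Il12b, a chain of interleukin 12, had 200.3 and 206 in DC and 7.30 and 0 in B_cell (6.15 ± 0.92, adjusted p = 1.24e-05). Ccr7, which guides migration to lymph nodes, had 2056 and 2039 in DC and 2203 and 251 in B_cell and did not pass the test, with B_cell replicate 1 above and replicate 2 below the DC libraries.

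Markers of lymphocytes and red cells were also higher in DC. Of 13 NK cell markers 13 rose, or 6 without DC replicate 2, and of 18 T cell markers 14 rose and 1, Thy1, fell. Gzmb, granzyme B, had 363 and 653 in DC and 14.6 and 20.3 in B_cell, and Klrk1, the receptor NKG2D, had 2426 and 2852 in DC and 229 and 259 in B_cell. Trac, the T cell receptor alpha constant region, had 687 and 799 in DC and 82.8 and 137 in B_cell. The summed level of NK markers was 14630 and 25930 in DC and 2621 and 5264 in B_cell, that of T cell markers 11320 and 13520 in DC and 4800 and 5558 in B_cell. The haemoglobin gene Hba-a1 had 26801 and 7896 in DC and 299 and 342 in B_cell and was highest in DC replicate 1. Erythroid markers rose in 7 of 13 cases and fell in 1. No NK, T or erythroid marker was at 0 in both libraries of a type, and the part of such cells in the DC values was not tested.

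Genes of the cell cycle were lower in DC in 13 of 32 cases and higher in 2, with a median of -0.62; after scaling to library totals the counts were 7 and 8 and the median 0.40. Without DC replicate 1 the counts were 7 lower and 1 higher, and without B_cell replicate 1 they were 11 and 4. Top2a, the topoisomerase of dividing cells, had 286 and 318 in DC and 2638.5 and 2748.5 in B_cell (-3.15 ± 0.30, adjusted p = 1.82e-08). Mki67, the proliferation antigen Ki-67, had 194 and 173 in DC and 1095 and 1204 in B_cell (-2.64 ± 0.36, adjusted p = 3.41e-06). Ccnb2, a mitotic cyclin, had 679.8 and 637 in DC and 4595 and 5789 in B_cell (-2.97 ± 0.29, adjusted p = 2.02e-08). These 3 fell under every setting tried. Ccnd1, cyclin D1, rose, with 1995 and 1898 in DC and 289.6 and 636 in B_cell (2.18 ± 0.40, adjusted p = 0.000132).

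Nuclear genes of oxidative phosphorylation fell in 19 of 34 cases and rose in 1, with a median of -1.09, and ribosomal protein genes fell in 15 of 33 cases and rose in 0, with a median of -0.98. After scaling to library totals these counts were 11 lower and 10 higher with a median of -0.06, and 4 lower and 4 higher with a median of 0.04. Without B_cell replicate 1 oxidative phosphorylation genes gave 17 lower and 5 higher. Ribosomal protein genes gave 7 lower without B_cell replicate 2 and 8 lower without DC replicate 2. Cox6a1, a subunit of cytochrome oxidase, had 2207 and 2191 in DC and 11442 and 30928 in B_cell (-3.10 ± 0.48, adjusted p = 1.89e-05). Cox7a2, another subunit, had 1152 and 1122 in DC and 4926 and 9326 in B_cell (-2.57 ± 0.36, adjusted p = 4.63e-06). Rpl35, of the large ribosomal subunit, had 3490 and 3222 in DC and 14378 and 23989 in B_cell (-2.47 ± 0.53, adjusted p = 0.000728). In Cox6a1, Cox7a2 and Rpl35 the second B_cell library was above the first, and both were above DC.

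Actin genes went both ways, with 7 of 32 higher and 10 lower in DC, beside 20.6% higher and 15.9% lower over all genes tested. After scaling to library totals 16 were higher and 6 lower. The lower count was 6 without either DC replicate, and the median was -0.23 as deposited and 0.31 without B_cell replicate 1. Cfl1, cofilin, had 10877 and 11071 in DC and 69839 and 63825 in B_cell (-2.60 ± 0.43, adjusted p = 3.82e-05), and Pfn1, profilin, had 26537 and 29262 in DC and 94712 and 200800 in B_cell (-2.31 ± 0.55, adjusted p = 0.00184). Anxa2, annexin A2, rose, with 2865 and 3429 in DC and 207 and 169.9 in B_cell (4.06 ± 0.30, adjusted p = 2.97e-10), as did Myo1f, an unconventional myosin, with 1351 and 1462 in DC and 85.2 and 162 in B_cell (3.57 ± 0.40, adjusted p = 2.42e-07). 

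Beside the lists that follow, 20.6% of all genes tested were higher and 15.9% lower in DC. Interferon response genes rose in 14 of 30 cases and fell in 3, or 25 and 1 after scaling to library totals. Rsad2, viperin, had 189 and 143 in DC and 17.0 and 15.2 in B_cell (3.27 ± 0.42, adjusted p = 1.8e-06), and Oas1a, which makes the signal for RNase L, had 617 and 689 in DC and 105 and 86.2 in B_cell (2.77 ± 0.45, adjusted p = 3.69e-05). Ifi27l2a fell, with 1076 and 1304 in DC and 6793 and 6397 in B_cell (-2.48 ± 0.32, adjusted p = 1.68e-06). Inflammasome and interleukin 1 genes rose in 9 of 14 cases and fell in 0, or 5 and 0 without DC replicate 1, DC replicate 2 or B_cell replicate 2. Il1b, interleukin 1 beta, had 453 and 450.1 in DC and 9.74 and 12.7 in B_cell (5.22 ± 0.87, adjusted p = 4.65e-05). In the BCL2 family 7 of 16 rose and 1 fell. Bbc3, the death effector PUMA, had 83.3 and 114 in DC and was listed at 0 in both B_cell libraries. Immediate early and heat shock genes, which respond to cell handling, rose in 5 of 19 cases and fell in 1, or 8 and 1 without B_cell replicate 1 and 11 and 0 after scaling to library totals, with Atf3, a stress-induced factor, at 90.5 and 120.0 in DC and 2.43 and 2.54 in B_cell.

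**Figure D4:**
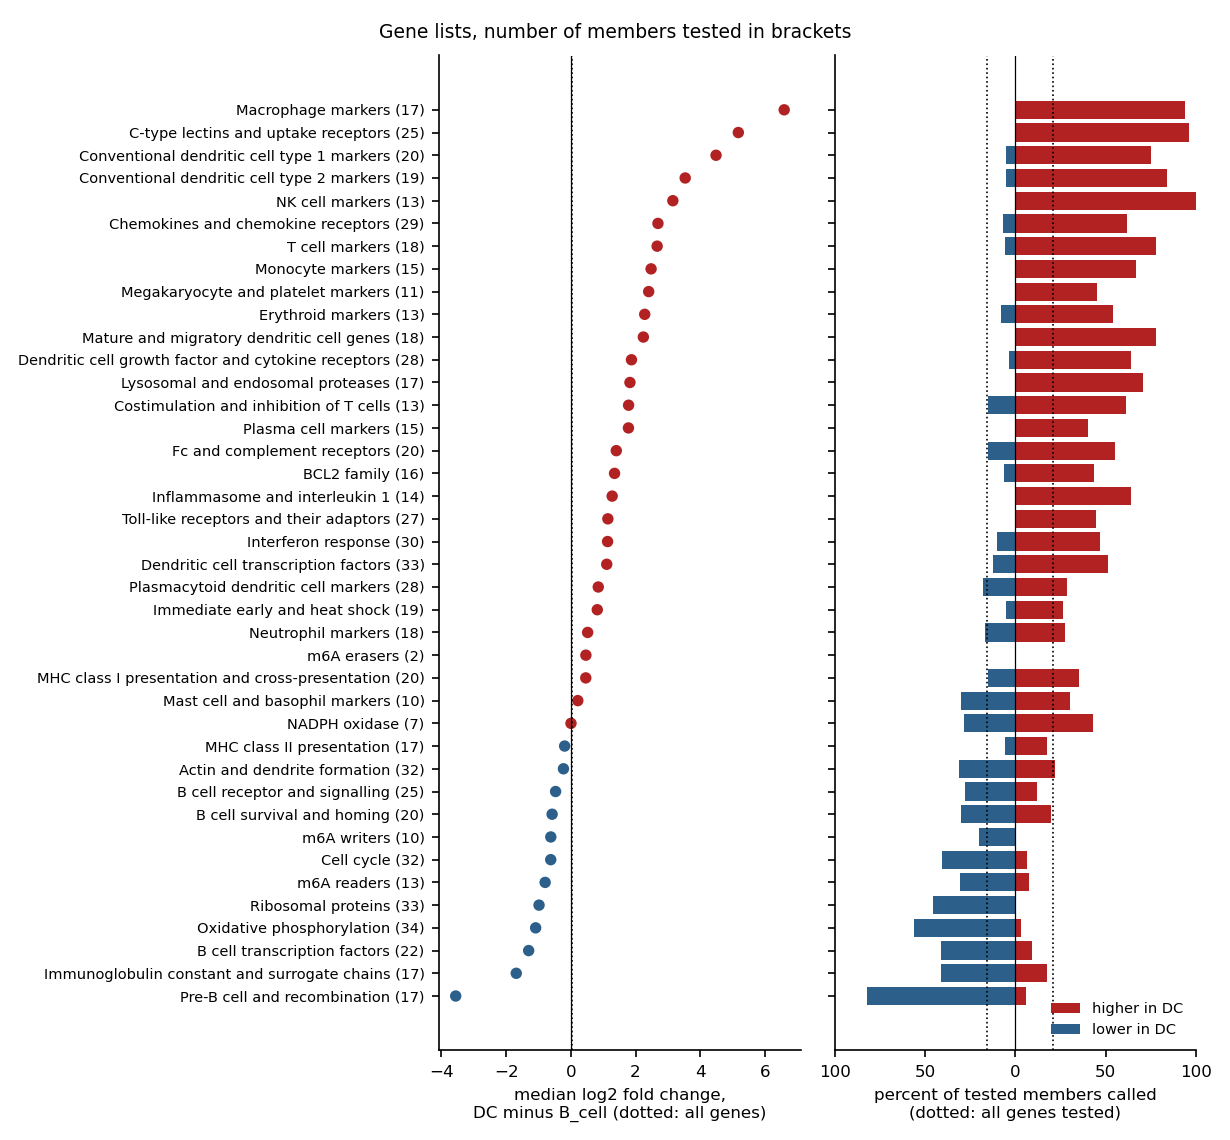
For each of 40 gene lists, the median log2 fold change of DC minus B_cell (left) and the percent of tested members called lower or higher in DC (right). Dotted lines give the values of all 17165 genes, a median of 0.05 with 15.9% lower and 20.6% higher; macrophage markers are at the top with 6.59 and pre-B genes at the bottom with -3.56.

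Genes of the m6A machinery were mostly not called, as was the case for 10905 of all 17165 genes tested. Of 10 writer genes 2 fell and 0 rose, and both calls, Mettl14 with 133 and 100.0 in DC and 199.6 and 287 in B_cell and Zc3h13 with 743 and 823 in DC and 1049 and 2277 in B_cell, were lost without B_cell replicate 2 (adjusted p = 0.157 and 0.402), without DC replicate 2 (0.144 and 0.0663) and after TMM scaling (0.0873 and 0.0695). Zc3h13 was also lost without DC replicate 1 (0.117), and after scaling to library totals its difference was 0.04. Without B_cell replicate 2 a pair of other writers passed the test as lower in DC, Mettl3 (0.0232) and Cbll1 (0.0263), the latter with 281 and 257 in DC and 759 and 276 in B_cell in all 4 libraries. Mettl3, the catalytic subunit, had 452 and 459 in DC and 1385 and 479 in B_cell and did not pass the test (-0.84 ± 0.47, adjusted p = 0.171). Neither eraser passed the test, with Fto at 299 and 288 in DC and 202 and 175 in B_cell and Alkbh5 at 1572 and 1763 in DC and 1020 and 1813 in B_cell. Of 13 readers 4 fell and 1 rose, or 4 and 3 without B_cell replicate 1. Ythdc1, the nuclear reader, had 354 and 297 in DC and 1507 and 2262 in B_cell (-2.51 ± 0.34, adjusted p = 4.26e-06). Hnrnpa2b1, a nuclear RNA-binding protein counted among the readers, had 17086 and 17259 in DC and 108740 and 93333 in B_cell (-2.55 ± 0.48, adjusted p = 0.000177). After scaling to library totals 4 readers rose and 4 fell, with a median of 0.22 in place of -0.79. 

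For the m6A enrichment of a gene, the log2 value in the input was subtracted from that in the IP, after TMM scaling of each table on its own. The tables cannot be set against each other in level, so only the difference in enrichment between DC and B_cell was tested. Of 16753 genes, 70 (0.418%) were more enriched in DC and 289 (1.73%) less enriched, 2.14% in all, and the median difference over all genes was -0.31. Of the 9078 genes with a mean input of at least 50 in both types, 48 (0.529%) were more and 254 (2.8%) less enriched. The input libraries enter both this quantity and the expression difference. All 70 genes with more enrichment had lower input in DC, with a median input difference of -2.47 and a median IP difference of 0.58. Of the 289 with less enrichment, 288 had higher input in DC, with medians of 1.95 and -0.54.

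The number of these calls changed widely when a single library was left out, which also leaves its group with only 1 library. Without input DC replicate 1 there were 8 more and 7 less enriched genes, without input DC replicate 2 there were 8 and 12, without input B_cell replicate 2 there were 29 and 11, and without IP B_cell replicate 2 there were 10 and 7. Without IP DC replicate 1 the counts were 12 and 42, without IP DC replicate 2 they were 25 and 91, and without IP B_cell replicate 1 they were 74 and 138. Without input B_cell replicate 1 there were 154 and 1094. Fitted on the 8 libraries alone the counts were 18 and 6. With the median difference set to 0 they were 93 and 68, so the excess of less enriched genes depends on the scaling of the tables. Of the 20 genes named by rule, Thy1 and Saa3 kept their calls under all alternatives, and Slc25a45 and Rab5c under all except the fit on the 8 libraries alone.

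Thy1, a surface glycoprotein best known from T cells (chr9:44043384-44048579), was among the more enriched genes that kept their calls. Its mean deposited input was 2407 in B_cell, 3096 in Monocyte and 3813 in CD4, the highest of the atlas cell types. Whether reads of similar sequences add to the values of the genes named for enrichment was not tested. The scaled input of Thy1 was 422 and 460.3 in DC and 2453 and 2285 in B_cell. Its scaled IP was 2268 and 2840 in DC and 764 and 598 in B_cell. The input was thus higher in B_cell and the IP higher in DC, with no overlap in either, and the enrichment difference was 4.33 ± 0.65, adjusted p = 0.000526. Saa3, a serum amyloid A gene, had input of 524 and 593 in DC and 4010.5 and 5424 in B_cell, and IP of 861 and 756 and 698 and 542. Here the IP differed by 0.39 and the input by -3.06 on the log2 scale, so the difference of 3.45 ± 0.58, adjusted p = 0.00189 came mainly with the input.

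Lars2, the mitochondrial leucyl-tRNA synthetase (chr9:123366927-123462675), had the largest difference of the genes named by rule (4.37 ± 0.84, adjusted p = 0.0072), with input of 611 and 533 in DC and 6392 and 12216 in B_cell and IP of 11179 and 8674 and 7218 and 7526. Its call was lost without input DC replicate 2 or input B_cell replicate 2, where the largest adjusted p was 0.0631. B2m had input of 46007 and 45606 in DC and 218110 and 355340 in B_cell, and IP of 119260 and 110330 and 135260 and 43214; its difference of 3.19 ± 0.74, adjusted p = 0.0188 was lost in 7 of 23 alternatives. Of the other genes named by rule, mt-Atp8 differed by 3.19 ± 0.81, Olfr152 by 3.66 ± 0.92, Hist1h1b by 3.20 ± 0.78, Snhg11 by 3.17 ± 0.78, Vmn2r79 by 3.11 ± 0.87 and Nipal2 by 2.91 ± 0.75. Their adjusted p ran from 0.0244 to 0.0474, and each lost its call in 6 to 15 of the 23 alternatives, among them the fits without input DC replicate 1, without input DC replicate 2 and without input B_cell replicate 2.

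Slc25a45, a mitochondrial carrier (chr19:5877801-5885768), was the gene named by rule with the largest loss. Its input was 1592 and 1518 in DC and 97.0 and 25.8 in B_cell, and its IP 330.2 and 305 and 208 and 261. The IP values of the 2 types were closer to each other than the inputs, giving a difference of -4.48 ± 0.76, adjusted p = 0.00189. Rab5c, a GTPase of early endosomes (chr11:100715003-100738215), had input of 1518 and 1486 and 334 and 197, IP of 209 and 174 and 254 and 394, and a difference of -3.27 ± 0.49, adjusted p = 0.000526. In Rab5c every DC input library was above, and every DC IP library below, those of B_cell.

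Plk1, the mitotic kinase (chr7:122159435-122169884), differed in the IP more than in the input. Its input was 357 and 276 in DC and 597 and 86.6 in B_cell, so that the DC libraries lay between the B_cell replicates, and the input difference of 0.46 did not pass the test. Its IP was 38.1 and 21.6 in DC and 354 and 409 in B_cell, a difference of -3.68, and the enrichment difference was -4.14 ± 0.90, adjusted p = 0.0127. The call was lost without input DC replicate 1, input DC replicate 2, input B_cell replicate 2, IP DC replicate 2 or IP B_cell replicate 2, with adjusted p of up to 0.213. Of the 359 genes called, 36 had an input difference under 1 on the log2 scale, and 34 of these were less enriched in DC.

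The other less enriched genes named by rule were Cptp, a ceramide-1-phosphate transfer protein, at -4.24 ± 0.88, Tspan14, a tetraspanin, at -3.61 ± 0.80, Npm3, a nucleoplasmin, at -3.44 ± 0.88, Cd151, a tetraspanin, at -3.39 ± 0.82, Rbm14 at -3.34 ± 0.89, Mid1ip1 at -3.30 ± 0.74 and Bop1, a ribosome biogenesis factor, at -3.30 ± 0.70. Each of the 7 lost its call in 5 to 13 of the 23 alternatives, among them the fits without input DC replicate 1, without input DC replicate 2 and without input B_cell replicate 2, and none of the 7 changed sign in these.

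**Figure D5:**
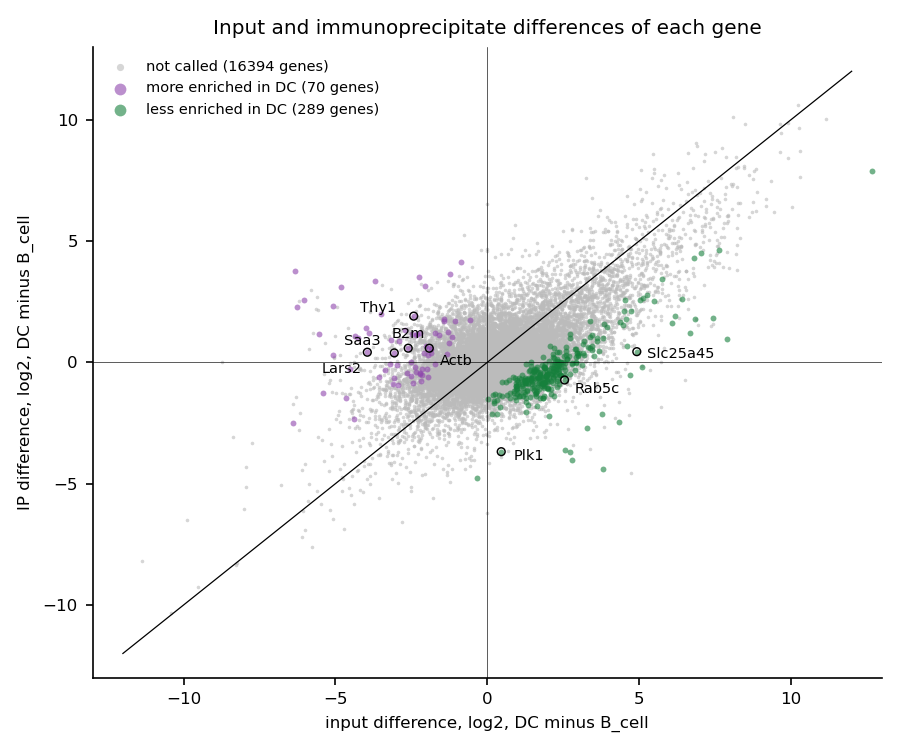
Each point is a gene, with its log2 input difference of DC minus B_cell on the x axis and its log2 IP difference on the y axis; the line marks equal differences. More enriched genes (purple, 70) lie left of 0 on the x axis, and less enriched genes (green, 289) lie right of it with 1 exception; Plk1 lies near 0 in input and at -3.68 in IP.

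Beside 1.73% less and 0.418% more enriched over all genes, the cell cycle list held the most enrichment calls among the gene lists. In it 5 of 32 were less enriched in DC and 0 more. They were Plk1, the replication helicase subunits Mcm5 at -1.81 ± 0.47, adjusted p = 0.035, Mcm6 at -2.50 ± 0.61, adjusted p = 0.0238 and Mcm7 at -2.26 ± 0.43, adjusted p = 0.0072, and the S-phase factor E2f1 at -3.23 ± 0.83, adjusted p = 0.0316. Mcm7 had input of 845 and 684 in DC and 996 and 321 in B_cell and IP of 310.0 and 309.7 and 1043 and 1176, so that its IP values did not overlap while its inputs did. The list's count was 0 without input DC replicate 1, input B_cell replicate 2 or IP B_cell replicate 2, 1 without input DC replicate 2, 2 without either IP DC replicate and 3 without IP B_cell replicate 1. It was 0 on the 8 libraries alone, 2 when centred on the median of all genes and 9 with library totals.

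Members of the presentation and sensing lists that were called were few, beside 2.14% over all genes. Tap1, with input of 1792 and 1726 in DC and 677 and 234 in B_cell, had IP of 1218 and 1608 and 1232 and 1811 and a difference of -2.23 ± 0.53, adjusted p = 0.0212. Myd88 had input of 2954 and 2869 and 452 and 96.0, IP of 562 and 564 and 288 and 279, and a difference of -2.81 ± 0.59, adjusted p = 0.0105. Tnfrsf1a had a difference of -2.49 ± 0.60, adjusted p = 0.0222 and Csf2ra of -2.26 ± 0.63, adjusted p = 0.044. In Myd88, Tnfrsf1a and Csf2ra both input and IP were higher in DC, the IP by less. Median differences were 0.58 for the 17 class II genes, -0.49 for the 25 lectins, -0.02 for the 17 pre-B genes and -0.42 for the 22 B cell transcription factors, beside -0.31 for all genes. H2-Eb1 had IP of 44398 and 51976 in DC and 15507 and 10729 in B_cell at input of 96640 and 71822 and 61144 and 99812, a difference of 1.80 ± 1.10, adjusted p = 0.445. Actb, beta actin, was more enriched (2.49 ± 0.67, adjusted p = 0.0382), as was the reader gene Ythdc1 itself (1.78 ± 0.44, adjusted p = 0.025). The calls of Tap1, Myd88, Tnfrsf1a, Csf2ra, Actb and Ythdc1 were each lost without input DC replicate 1, input DC replicate 2, input B_cell replicate 2 or IP B_cell replicate 2.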

How the data were processed

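Per the labels, RNA of 16 wild-type mouse cell types was sequenced as 2 input and 2 anti-m6A IP libraries each. The authors deposited input values as a normalised signal: the reads of each library were divided by its own factor, and all values tested were whole multiples of 1 read within 0.1 read. IP values were deposited as whole read counts. GRCm38, kallisto, Trimmomatic and fastp are named, with no version or role, per the submitters' processing notes.

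Expression was tested with limma 3.58.1 in R 4.3.3 (mean-variance trend, robust moderation) on log2(deposited value + 1), for genes at 10 or more in at least 2 of 32 input libraries. All 16 cell types shared the estimate of spread. A fold change on this scale understates the change of low genes. Enrichment was tested as the DC minus B_cell difference of log2(IP + 1) minus log2(input + 1) over 64 libraries, with TMM scaling within each table. Adjusted p-values are Benjamini-Hochberg values over all genes tested, with a threshold of 0.05, and errors are SE unless stated.

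Named genes were the 12 highest and 12 lowest expression differences, and 10 and 10 enrichment differences. They came from called genes at a mean of 50 or more whose libraries did not overlap. The mean was taken over the DC and B_cell inputs together for expression, and over the inputs of each type for enrichment. Names starting with Gm and a digit, ending in Rik or being clone names were left out. Members of the 40 gene lists were named as examples. For those picked from called genes, a lack of overlap between the libraries adds no support. The libraries, lists and rules were chosen with earlier results of these data known. Intervals and the floor of 3 reads per library cover counting error only, at 95% (exact). Promoters and gene positions are from RefSeq, GRCm38.p6; 12116 of 17165 genes tested matched the promoter table by symbol. The tests were checked on simulated data with the same spread in every library, which does not cover the wide spread of the B_cell inputs. edgeR 4.0.16 and DESeq2 1.42.0 on recovered reads, other scalings, filters and pseudocounts, and left-out libraries were tried as alternatives. Some genes are not reported here.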

Additional observations from a re-analysis of the deposited data

How the results depend on the processing

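After scaling to library totals, tried after seeing the data, 6774 genes were higher and 890 lower, and Zc3h13 changed from -0.98 to 0.04 on the log2 scale. Fitted on the 4 libraries alone, 2080 were higher and 1558 lower. Leaving out 1 library gave 2461 to 3587 higher and 1701 to 2494 lower genes. With the replicate number as a block the counts were 3538 and 2752. edgeR on recovered reads called 3699 higher and 2109 lower, and DESeq2 3013 and 3020 with 999 genes without an adjusted p.

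Of the genes named without a call, some changed sign. After TMM scaling H2-Eb1 was at 0.09 and Irf8 at 0.17, and after scaling to library totals H2-Aa was at 0.3, H2-Eb1 at 0.83, Irf8 at 0.91, Cbll1 at 0.25 and Mettl3 at 0.18. With edgeR H2-Eb1 was at 0.07 and Ighm at -0.71, and with DESeq2 Ighm was at -0.92. Without B_cell replicate 1 or 2 in turn, Alkbh5 ranged from -0.12 to 0.71, Bst2 from -0.12 to 0.91, Ccr7 from -0.11 to 3.02, H2-Ab1 from -0.03 to 1.61, H2-Eb1 from -0.64 to 0.26, Ighm from -1.87 to 2.51 and Irf8 from -0.87 to 0.64. Without DC replicate 1 or 2 in turn, Tlr9 ranged from -0.23 to 0.51.

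Enrichment calls depended on the setting. More and less enriched genes numbered 221 and 484 with a pseudocount of 10, 376 and 388 with no filter, 59 and 1428 with library totals, 18 and 6 on the 8 libraries alone, 43 and 172 with a weight for each library kind, 61 and 138 with edgeR, 229 and 544 with DESeq2, and 93 and 68 centred on the median, an alternative tried after seeing the data. Leaving out 1 library gave 8 to 154 more and 7 to 1094 less enriched genes. The cause of these differences was not tested.

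Replicate numbers showed little sign of pairing the libraries. Deviations from the group means correlated at 0.014 between DC and B_cell inputs and 0.108 between their IP libraries. Between input and IP they correlated at -0.125 in DC and -0.054 in B_cell. With 2 replicates a group such values cannot exclude a pairing. With the number within each kind as a block 75 and 299 genes were called, with IP and input of a number paired as a block 69 and 189, and with the DC numbers crossed, tried after seeing the data, 72 and 200. The B_cell inputs, at 2.43 and 2.54 units a read, limit what can be seen of low genes in B_cell.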
